A study of Homo sapiens with 6 samples.

Results

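Of 29122 genes in the deposited table of read counts, 37 have a symbol that begins with MT-, the prefix for genes of the mitochondrial genome, and these 37 are described here. They comprise 13 mRNAs, 2 rRNAs and 22 tRNAs, and all 37 matched a mitochondrial gene of GENCODE release 29 on GRCh38. The libraries came from A549, a human lung carcinoma epithelial line, stably transduced with a lentivirus that encoded a short hairpin RNA. The 3 control libraries came from cells whose hairpin targets firefly luciferase, and the 3 BCLAF1-depleted libraries from cells whose hairpin targets BCLAF1, which acts in the nucleus in transcription and in the splicing of RNA. Sample names write "si" where the treatment protocol describes hairpins, and no source used here gives the number of hairpins or clones. Directional libraries were made by random-primed reverse transcription after oligo(dT) selection. No label says that replicates were separate cultures, so the spread behind each p-value is that between these libraries and may be technical.

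Human mitochondrial DNA is a small circle transcribed on both strands into long precursors. In these precursors tRNAs lie between most of the rRNAs and mRNAs, and their excision by RNase P and ELAC2 frees the RNAs on either side. Most of the mRNAs then receive a short poly(A) tail, whereas the light-strand mRNA MT-ND6 is known to lack a tail of that kind. tRNAs are short and carry no poly(A) tail when mature. Oligo(dT) selection therefore measures these classes unequally, and levels below are levels in polyadenylated RNA preparations.

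By convention a gene on the plus strand of the reference is called heavy-strand-coded and one on the minus strand light-strand-coded. Among the 37 genes, 28 are heavy-strand-coded (12 mRNAs, 2 rRNAs and 14 tRNAs) and 9 are light-strand-coded (MT-ND6 and 8 tRNAs). The mRNAs run from 207 to 1812 bases and the tRNAs from 59 to 75 bases. Sequences below are shown for the genes on which the results turn. They are GENCODE release 29 transcripts on GRCh38, 5′ to 3′ on the strand that is named. The 8 tRNAs that passed the test of BCLAF1-depleted against control libraries come first, in order along the genome, with capitals for the anticodon, the bases that pair with the codon.
MT-TV, tRNA for valine, chrM:1602-1670, plus strand: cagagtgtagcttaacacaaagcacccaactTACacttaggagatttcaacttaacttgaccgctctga
MT-TI, tRNA for isoleucine, chrM:4263-4331, plus strand: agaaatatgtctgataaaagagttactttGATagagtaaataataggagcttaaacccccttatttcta
MT-TQ, tRNA for glutamine, chrM:4329-4400, minus strand: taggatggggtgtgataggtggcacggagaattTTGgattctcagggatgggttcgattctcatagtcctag
MT-TN, tRNA for asparagine, chrM:5657-5729, minus strand: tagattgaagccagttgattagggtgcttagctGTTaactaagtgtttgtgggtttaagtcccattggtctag
MT-TC, tRNA for cysteine, chrM:5761-5826, minus strand: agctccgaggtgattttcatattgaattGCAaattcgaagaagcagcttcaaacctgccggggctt
MT-TS1, tRNA for serine, chrM:7446-7514, minus strand: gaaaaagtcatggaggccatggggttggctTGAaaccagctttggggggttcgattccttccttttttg
MT-TH, tRNA for histidine, chrM:12138-12206, plus strand: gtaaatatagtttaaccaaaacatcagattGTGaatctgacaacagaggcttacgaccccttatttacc
MT-TT, tRNA for threonine, chrM:15888-15953, plus strand: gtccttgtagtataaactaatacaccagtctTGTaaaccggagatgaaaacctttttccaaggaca

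MT-TI and MT-TQ overlap by 3 bases on opposite strands, and MT-TI begins at the base after the end of MT-ND1. The next sequences show where reading frames share bases, since reads in a shared stretch can be assigned to either gene. MT-ATP8 and MT-ATP6 share 46 bases, and MT-ND4L and MT-ND4 share 7 bases, shown in capitals.
MT-ATP8, last 60 bases, chrM:8513-8572, plus strand: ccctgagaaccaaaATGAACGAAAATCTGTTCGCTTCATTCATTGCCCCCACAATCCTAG
MT-ATP6, first 60 bases, chrM:8527-8586, plus strand: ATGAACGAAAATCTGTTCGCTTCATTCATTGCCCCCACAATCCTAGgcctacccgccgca
MT-ND4L, last 60 bases, chrM:10707-10766, plus strand: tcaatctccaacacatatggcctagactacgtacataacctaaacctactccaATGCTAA
MT-ND4, first 60 bases, chrM:10760-10819, plus strand: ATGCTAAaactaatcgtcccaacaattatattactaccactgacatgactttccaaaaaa

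By annotated length, 7 of the 13 mRNAs encode a whole stop codon. The other 6 end in 1 or 2 of its bases, and the poly(A) tail completes it. MT-ATP6 is counted among the 7, though its last annotated base is also the first base of MT-CO3. The ends of the 3 mRNAs that passed the test show both kinds, with capitals for the bases of the stop codon that are encoded.
MT-ND1, last 30 bases, chrM:4233-4262, plus strand: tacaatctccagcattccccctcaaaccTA
MT-ND3, last 30 bases, chrM:10375-10404, plus strand: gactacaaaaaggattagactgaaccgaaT
MT-ND6, last 30 bases, chrM:14149-14178, minus strand: attgtaattgagattgctcgggggaatAGG

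Library totals ran from 41019185 to 43928927 counts in control and from 33409158 to 40820922 counts in BCLAF1-depleted libraries. BCLAF1 stood at 211.1, 199.0 and 203.2 CPM (counts scaled to a common library size, with TMM factors) in control replicates 1 to 3 and at 39.0, 35.7 and 53.1 CPM in BCLAF1-depleted replicates 1 to 3. Its log2 fold change was -2.26 ± 0.16 (SE; adjusted p = 2.3e-05, edgeR's quasi-likelihood test). Summed epithelial markers (KRT8, KRT18, KRT19, EPCAM and CDH1) were 30213 to 39109 CPM over the 6 libraries, with KRT19 near 0 at 0.448 CPM on average. Markers of blood cells (PTPRC and CD68) summed to at most 1.70 CPM and those of endothelium to at most 2.68 CPM. Fibroblast markers, mostly COL1A1, summed to 20.2 to 21.7 CPM in control and 12.3 to 14.1 CPM in BCLAF1-depleted libraries.

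**Figure D1:**
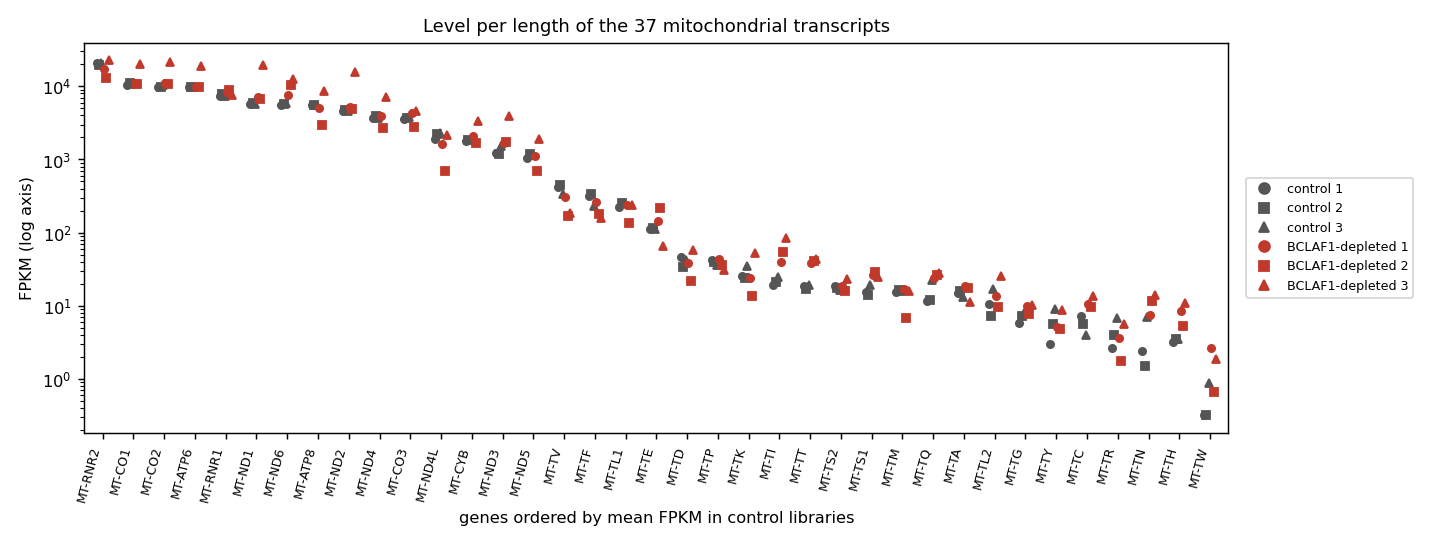
FPKM of each of the 37 mitochondrial genes (log axis) in each of the 6 libraries, with genes ordered by their mean in control libraries. Grey symbols are control and red symbols BCLAF1-depleted libraries, and the symbol gives the replicate number. The mRNAs and rRNAs all lie above the tRNAs, and BCLAF1-depleted replicate 3 is the topmost point for most of the mRNAs.

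Levels were compared between genes on the FPKM scale, fragments scaled to gene length and library size, as the authors deposited them. In control libraries MT-RNR2, the large-subunit rRNA, ranked first at 20492 ± 669 FPKM (SD, n = 3). MT-CO1 and MT-CO2, subunits of cytochrome c oxidase, followed at 10769 ± 402.5 and 10080 ± 319.5 FPKM, with spreads that touch. Within each control library MT-CO1 was the higher, at 10372 against 9921, 11177 against 9872 and 10757 against 10448 FPKM. MT-ND5 was the lowest mRNA at 1133 ± 66.3 FPKM. The highest tRNA was MT-TV at 401.1 ± 57.2 FPKM, below all mRNAs and rRNAs, and the lowest tRNA was MT-TW at 0.51 FPKM. In BCLAF1-depleted libraries MT-RNR2 stayed first and MT-CO2 came second at a mean of 14575 FPKM, ahead of MT-CO1 at 13946 FPKM. MT-CO2 exceeded MT-CO1 in each of the 3 BCLAF1-depleted libraries, at 11194 against 11063, 10837 against 10744 and 21694 against 20031 FPKM, so the order did not rest on 1 library.

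The share of each library taken by these genes lay between 10.48 and 11.41% in 5 of the 6 libraries. All 37 genes together held 10.7, 10.96 and 11.1% of counts in control replicates 1 to 3 and 11.41, 10.48 and 19.3% in BCLAF1-depleted replicates 1 to 3. BCLAF1-depleted replicate 3 stood far above the rest, and the other 2 BCLAF1-depleted libraries lay on either side of the controls. The group means differed by 2.81 percentage points (exact two-sided permutation test over libraries, p = 0.5). Without BCLAF1-depleted replicate 3 the difference was 0.0255 points. With 3 libraries against 3 this test cannot give a p below 0.1, so no share or ratio here could pass a threshold of 0.05. In bulk RNA, more cells with a high level and more RNA in each cell cannot be told apart.

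The classes did not move alike. The 13 mRNAs held 6.32, 6.63 and 6.59% of counts in control and 7.30, 6.97 and 14.4% in BCLAF1-depleted libraries. Each BCLAF1-depleted value exceeded each control value (exact permutation p = 0.1, or 0.3 adjusted over the 6 shares), and replicate 3 stood far above the other 5 libraries. The 2 rRNAs held 4.37, 4.32 and 4.50% in control and 4.10, 3.50 and 4.90% in BCLAF1-depleted libraries (exact permutation p = 0.7), and these groups overlap. The 22 tRNAs held 0.00977 to 0.0110% in control and 0.00850 to 0.0106% in BCLAF1-depleted libraries (exact permutation p = 0.3). Most tRNA counts in the control libraries were those of MT-TF, MT-TV and MT-TL1. The 9 light-strand-coded genes, nearly all of it MT-ND6, held 0.328, 0.339 and 0.348% in control and 0.460, 0.664 and 0.766% in BCLAF1-depleted libraries. These light-strand groups did not overlap (exact permutation p = 0.1, or 0.3 adjusted), and here replicates 2 and 3 both stood well above the controls.

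Shares were also taken of the summed FPKM, which weighs genes per length. The mRNA share was 16.4, 16.9 and 16.9% in control and 17.7, 16.1 and 29.98% in BCLAF1-depleted libraries, which overlap (exact permutation p = 0.5). The rRNA share was 7.08, 7.03 and 7.17% in control and 6.40, 5.35 and 6.47% in BCLAF1-depleted libraries, all lower than the controls (exact permutation p = 0.1). On this scale the light-strand groups again did not overlap, at 1.46 to 1.53% against 1.93 to 2.74% (exact permutation p = 0.1).

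**Figure D2:**
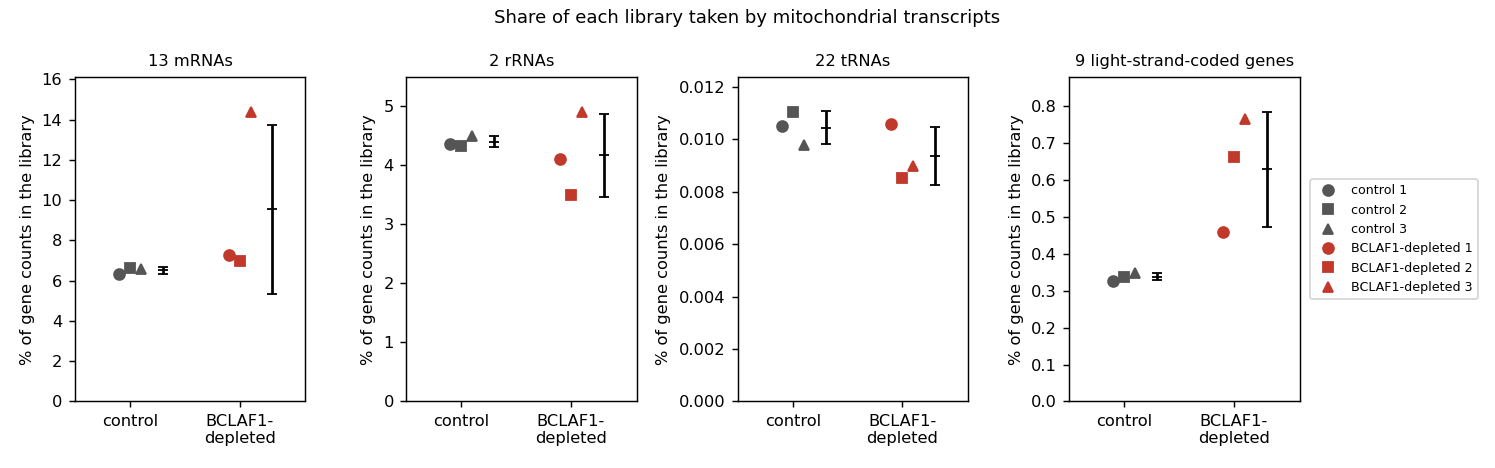
Percent of all gene counts in each library held by the 13 mRNAs, 2 rRNAs, 22 tRNAs and 9 light-strand-coded genes, with the mean and SD of each group of 3 libraries beside its points. The mRNA share of BCLAF1-depleted replicate 3 is 14.4% where the other 5 libraries lie between 6.32 and 7.30%, whereas the light-strand share separates all 3 BCLAF1-depleted libraries from the controls.

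In the test across all genes 36 of the 37 passed the filter on low counts. The exception was MT-TW, the tRNA for tryptophan, with 1, 1 and 3 counts in control and 7, 2 and 6 counts in BCLAF1-depleted libraries; 3 counts, taken as the limit that a count of 0 allows, equal 0.0683 to 0.0898 CPM, and this covers counting error only. Of the 36, 10 rose with BCLAF1 depletion, 1 fell and 25 did not pass an adjusted p of 0.05. Over all 15907 genes tested 35.8% passed, 17.8% as higher and 18% as lower. The share of mitochondrial genes that passed in either direction was therefore close to that of all genes. By direction they differed, with 10 higher and 1 lower where all genes were split almost evenly. The 36 genes share libraries and are not independent, and this difference was not tested. The median log2 fold change was 0.62 for the 36 genes and 0.02 for all genes tested, and 33 of the 36 values were above 0. Without BCLAF1-depleted replicate 3, 23 of the 36 were above 0. With a trend of length and GC content removed 27 were, and on log2(FPKM + 1) 25 were. By class, 3 of 13 mRNAs rose, neither rRNA passed, and 7 of 21 tRNAs rose and 1 fell. By strand, 5 of 27 heavy-strand-coded genes rose and 1 fell (median 0.47), and 5 of 9 light-strand-coded genes rose (median 1.00). With the length and GC trend removed, 4 of 27 heavy-strand-coded genes rose and 2 fell (median 0.22). There 2 of 9 light-strand-coded genes rose (median 0.53), where 18.1% of all genes were higher and 16% lower. The difference between strands was not tested. The risers include MT-TN (light strand) and MT-TH (heavy strand), which would not have passed the low-count filter on their control libraries alone.

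Library by library, on CPM with TMM factors, 19 of the 36 genes had all BCLAF1-depleted values above all control values and 1 had them all below. Some of these groups overlap on FPKM, as given below. Over all genes tested such separation occurred in 51.9%, with 25.3% as higher and 26.6% as lower. BCLAF1-depleted replicate 3 was the highest of the 6 libraries for 29 of the 36 genes and for 13 of 13 mRNAs. Without that library 8 genes rose and 0 fell in edgeR's test (2 were lower at an unadjusted p under 0.05), where 30.8% of all genes passed, 15.6% as higher and 15.2% as lower. Of the 11 calls made with all libraries, 7 were kept: MT-ND1, MT-ND3, MT-ND6, MT-TI, MT-TS1, MT-TH and MT-TT. MT-TE was added, and the median log2 fold change over the 36 genes was 0.21. Other values moved with the groups. TMM scaling factors were 1.05, 0.939 and 0.795 in BCLAF1-depleted replicates 1 to 3 and 1.08 to 1.10 in controls. Gene counts made up 88.8 to 89.5% of the library size that the deposited FPKM imply in control and 86.2, 83.2 and 86.9% in BCLAF1-depleted libraries. When tested genes were split by length into 5 equal bins, the bin of shortest genes had a median log2 level of 0.18, 0.45 and 0.35 over the control mean in BCLAF1-depleted replicates 1 to 3, and the bin of longest genes -0.11, -0.28 and -0.22. With a trend of length and GC content removed, 6 mitochondrial genes rose and 2, MT-TF and MT-TV, fell, where 34.1% of all genes passed, 18.1% as higher and 16% as lower; the part of the other values in these results was not tested.

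MT-RNR1 and MT-RNR2, the rRNAs of the small and large subunits of the mitochondrial ribosome, lie next to each other near the start of the heavy-strand precursor, with MT-TV between them. MT-RNR1 stood at 7231, 7888 and 7251 CPM in control and at 8821, 10985 and 10640 CPM in BCLAF1-depleted libraries. The groups did not overlap, and the log2 fold change was 0.44 ± 0.18 (SE; adjusted p = 0.0825). On deposited FPKM they overlap, with BCLAF1-depleted replicate 3 at 7703 against 7294 to 7952 in control. MT-RNR2 stood at 33376, 32059 and 33824 CPM in control and at 30199, 26312 and 51037 CPM in BCLAF1-depleted libraries. BCLAF1-depleted replicates 1 and 2 lay below all controls and replicate 3 above them, with a log2 fold change of 0.12 ± 0.27 (SE; adjusted p = 0.765). Neither rRNA passed edgeR's test (1 of 2 was higher at an unadjusted p under 0.05), and the DESeq2 Wald test called MT-RNR1 higher.

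Complex I, NADH dehydrogenase, takes 7 mitochondrial subunits. MT-ND1 stood at 5661, 5848 and 5714 CPM in control and at 7610.0, 8114 and 27341 CPM in BCLAF1-depleted libraries. All 3 BCLAF1-depleted libraries were above the controls, at 1.33, 1.41 and 4.76 times the control mean, so the rise of 1.32 ± 0.43 in log2 (SE; adjusted p = 0.0376) is mostly that of replicate 3. Without that library the log2 fold change was 0.45 (adjusted p = 0.0311). MT-ND1 missed the threshold when any 1 control library was left out, in the DESeq2 Wald test (adjusted p = 0.0943), in limma-voom (0.0609), on FPKM and with the length and GC trend removed (0.0878). MT-ND2 stood at 4996, 5136 and 4932 CPM in control and at 6008, 6554 and 23371 CPM in BCLAF1-depleted libraries. Its groups did not overlap either, but its log2 fold change of 1.25 ± 0.45 (SE) missed the threshold (adjusted p = 0.0524). MT-ND3 rose from 436.4, 424.2 and 546.7 CPM to 651.3, 765.8 and 1982 CPM, a log2 fold change of 1.27 ± 0.36 (SE; adjusted p = 0.0219). It kept a log2 fold change of 0.59 without replicate 3 (adjusted p = 0.0207), and it missed the threshold when any 1 control library was left out, in the DESeq2 Wald test and on FPKM.

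The other heavy-strand subunits of complex I did not pass. MT-ND4L, a short subunit, stood at 589.4, 679.5 and 709.9 CPM in control and at 540.3, 267.0 and 917.9 CPM in BCLAF1-depleted libraries. MT-ND4 stood at 5336, 5660 and 5211 CPM in control and at 5979, 4773 and 14471 CPM in BCLAF1-depleted libraries. For MT-ND5 the values were 1989, 2212 and 2177 CPM and 2268, 1590 and 4969 CPM. In all 3 genes BCLAF1-depleted replicate 2 was the lowest of the 6 libraries and replicate 3 the highest, so the groups overlap. Their log2 fold changes were -0.20 ± 0.34, 0.64 ± 0.36 and 0.47 ± 0.34 (SE; adjusted p of 0.678, 0.183 and 0.307).

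MT-CYB, the mitochondrial subunit of complex III, stood at 2109, 2186 and 2221 CPM in control and at 2629, 2439 and 5560 CPM in BCLAF1-depleted libraries, with no overlap (log2 fold change 0.71 ± 0.29, SE; adjusted p = 0.0799). On FPKM its groups overlap, with BCLAF1-depleted replicate 2 at 1668 against 1778 to 1893 in control. Complex IV, cytochrome c oxidase, takes 3 subunits. MT-CO1 stood at 16621, 17922 and 17055 CPM in control and at 18856, 21226 and 44725 CPM in BCLAF1-depleted libraries. MT-CO2 stood at 7052, 7022 and 7348 CPM against 8463, 9498 and 21486 CPM. In both genes every BCLAF1-depleted library lay above every control, though replicates 1 and 2 stood at only 1.10 to 1.33 times the control mean. On FPKM the MT-CO1 groups overlap, with BCLAF1-depleted replicates 1 and 2 at 11063 and 10744 against 10372 to 11177 in control. MT-CO3 was at 2893, 3004 and 3027 CPM in control and 3691, 2788 and 5202 CPM in BCLAF1-depleted libraries, which overlap. None of the 3 passed, at log2 fold changes of 0.72 ± 0.32, 0.88 ± 0.33 and 0.39 ± 0.23 (SE; adjusted p of 0.101, 0.0576 and 0.197).

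Complex V, ATP synthase, takes MT-ATP6 and MT-ATP8 from 1 RNA that carries both frames. MT-ATP6 stood at 6864, 6875 and 6864 CPM in control and at 7314, 8461 and 18764 CPM in BCLAF1-depleted libraries. MT-ATP8 stood at 1209, 1201 and 1195 CPM in control and at 1146, 796.5 and 2591 CPM in BCLAF1-depleted libraries. In replicates 1 and 2 MT-ATP6 was above the controls and MT-ATP8 below them, and in replicate 3 both were above. On FPKM the MT-ATP6 groups overlap, with BCLAF1-depleted replicates 1 and 2 at 9716.5 and 9697.2 against 9699.2 to 9802 in control. Neither passed, with log2 fold changes of 0.75 ± 0.32 and 0.33 ± 0.35 (SE; adjusted p of 0.0953 and 0.482).

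**Figure D3:**
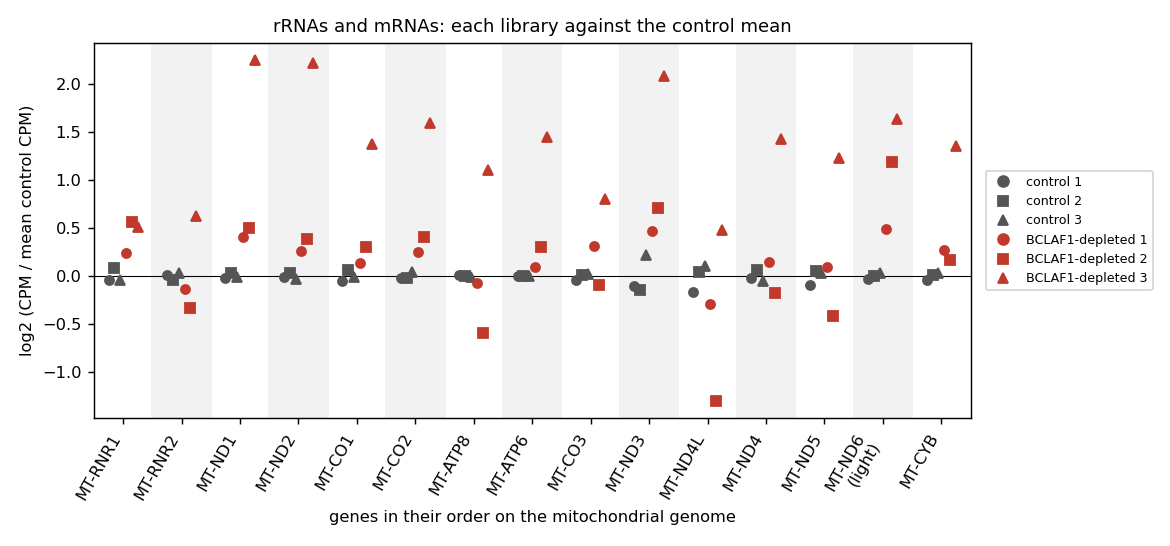
Log2 of each library's CPM over the control mean for the 2 rRNAs and 13 mRNAs in their order along the genome, with grey symbols for control and red for BCLAF1-depleted libraries. BCLAF1-depleted replicate 3 (red triangles) is above the control mean in all 15 genes, most of all for MT-ND1, MT-ND2 and MT-ND3. Replicate 2 (red squares) is below it for MT-RNR2, MT-ATP8, MT-CO3, MT-ND4L, MT-ND4 and MT-ND5, most of all for MT-ND4L.

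Within the 12 heavy-strand mRNAs the spread along the genome differed by library. Levels over the control mean ran from 0.819 to 1.39 times in BCLAF1-depleted replicate 1 (median 1.15), from 0.405 to 1.63 times in replicate 2 (median 1.18) and from 1.39 to 4.76 times in replicate 3 (median 2.64). Replicate 3 was above the control mean for all 12, replicate 1 for 10 and replicate 2 for 7. Across the 12 genes, which share libraries and are not independent, Spearman's rho of this level with position was -0.15, -0.54 and -0.55 in BCLAF1-depleted replicates 1 to 3 and -0.42 to 0.39 in controls. This trend was not tested. The rRNAs lie before these mRNAs, and in replicate 3 MT-RNR1 stood at 1.43 and MT-RNR2 at 1.54 times the control mean, below MT-CYB, the last of the mRNAs, at 2.56 times. The pattern over genes had Pearson's r of 0.74 to 0.88 between BCLAF1-depleted libraries, which share the control mean they were divided by.

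MT-ND6, the complex I subunit coded on the light strand, rose in each library and passed in every setting tried. It stood at 3033, 3115 and 3163 CPM in control and at 4361, 7042 and 9610 CPM in BCLAF1-depleted libraries. All 3 BCLAF1-depleted values were above the controls, at 1.41, 2.27 and 3.10 times the control mean. The log2 fold change was 1.17 ± 0.26 (SE; adjusted p = 0.00826), and 0.88 without replicate 3 (adjusted p = 0.0146). Over 20 settings it ran from 0.81 to 1.40. No source used here gives the strand setting of the counts. If strand was not used, reads of MT-ND6 and of the light-strand tRNAs cannot be told apart from reads of any heavy-strand RNA at the same place.

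Of the 22 tRNAs, most had few reads, and their reads in these libraries may come from precursors as well as from mature tRNA. The most abundant heavy-strand tRNAs flank the rRNAs. MT-TF stood at 23.4, 24.8 and 17.1 CPM in control and at 20.5, 16.4 and 16.1 CPM in BCLAF1-depleted libraries, which overlap (log2 fold change -0.31 ± 0.17, SE; adjusted p = 0.171). MT-TV stood at 30.3, 31.9 and 23.9 CPM in control and at 23.4, 14.7 and 18.8 CPM in BCLAF1-depleted libraries. All BCLAF1-depleted values lay below the controls, replicate 1 only narrowly, and the log2 fold change was -0.60 ± 0.18 (SE; adjusted p = 0.0271). It was the only mitochondrial gene that fell, and it missed the threshold without control replicate 1 or 2 or without BCLAF1-depleted replicate 2 or 3. MT-TL1, which follows MT-RNR2, stood at 17.4, 19.6 and 19.3 CPM against 19.8, 12.9 and 25.9 CPM, with a log2 fold change of 0.05 ± 0.21 (SE; adjusted p = 0.858).

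The heavy-strand tRNAs that rose were MT-TI, MT-TH and MT-TT. MT-TI, just after MT-ND1, stood at 1.36, 1.53 and 1.75 CPM in control and at 3.05, 4.87 and 8.38 CPM in BCLAF1-depleted libraries. The log2 fold change was 1.81 ± 0.33 (SE; adjusted p = 0.00333), and no library of either group overlapped the other. MT-TT, just after MT-CYB at the end of the coding sequence, stood at 1.27, 1.17 and 1.31 CPM against 2.82, 3.46 and 4.22 CPM. It had the smallest adjusted p of the 36 genes, with a log2 fold change of 1.48 ± 0.21 (SE; adjusted p = 0.000992). MT-TH, between MT-ND4 and MT-TS2, had 10, 11 and 12 counts in control and 23, 16 and 35 counts in BCLAF1-depleted libraries. Its log2 fold change was 1.59 ± 0.39 (SE; adjusted p = 0.0125), and it missed the threshold without control replicate 1. MT-TI and MT-TT passed in each of the 19 settings in which they were tested.

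Of the 8 light-strand tRNAs, 4 rose. MT-TQ, which shares 3 bases with MT-TI on the other strand, stood at 0.86, 0.90 and 1.66 CPM in control and at 1.88, 2.40 and 2.90 CPM in BCLAF1-depleted libraries (log2 fold change 1.06 ± 0.29, SE; adjusted p = 0.0202). MT-TS1, which directly follows MT-CO1 on the opposite strand, stood at 1.11, 1.01 and 1.37 CPM against 2.02, 2.52 and 2.47 CPM, with a log2 fold change of 1.00 ± 0.22 (SE; adjusted p = 0.00736). In both tRNAs the groups did not overlap, and for MT-TS1 replicate 3 did not stand apart from replicate 2. MT-TN had 8, 5 and 25 counts in control and 21, 37 and 48 counts in BCLAF1-depleted libraries, a log2 fold change of 1.92 ± 0.52 (SE; adjusted p = 0.0183). MT-TC had 22, 17 and 13 counts against 27, 28 and 42 counts, a log2 fold change of 1.32 ± 0.35 (SE; adjusted p = 0.0166). Counts this low leave wide errors. MT-TN reached the filter's 0.244 CPM in 1 control and 3 BCLAF1-depleted libraries, and MT-TH in 2 and 3. Both therefore entered the test only because of the group in which they are higher, and their calls carry that limit. Without BCLAF1-depleted replicate 3, MT-TQ, MT-TN and MT-TC missed the threshold. MT-TQ and MT-TN also missed it without control replicate 1 or 2 or BCLAF1-depleted replicate 2, and MT-TC without control replicate 2 or 3. With the length and GC trend removed, MT-TQ, MT-TC and MT-TS1 missed it, at log2 fold changes of 0.60, 0.91 and 0.53. With scaling by library totals MT-TQ missed it as well, at 0.81 (adjusted p = 0.0501).

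MT-TE, the light-strand tRNA that adjoins MT-ND6, went its own way by library. It stood at 8.06, 8.34 and 7.84 CPM in control and at 10.9, 19.4 and 6.47 CPM in BCLAF1-depleted libraries. Replicate 3 was the lowest of the 6 libraries and replicate 2 the highest, whereas in most mitochondrial genes replicate 3 was the highest. The log2 fold change was 0.60 (adjusted p = 0.148), and 0.90 without replicate 3 (adjusted p = 0.0192). MT-TP stood within 2.56 to 3.28 CPM in all 6 libraries, a log2 fold change of 0.16 ± 0.17 (SE). Of the remaining tRNAs, none passed. MT-TA, MT-TG and MT-TS2 had all BCLAF1-depleted CPM values above the controls, at log2 fold changes of 0.39, 0.70 and 0.46. On FPKM the groups of MT-TA, MT-TG and MT-TS2 overlap. The groups overlapped for MT-TM, MT-TY, MT-TD, MT-TK, MT-TR and MT-TL2, whose log2 fold changes ran from 0.01 to 0.83.

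**Figure D4:**
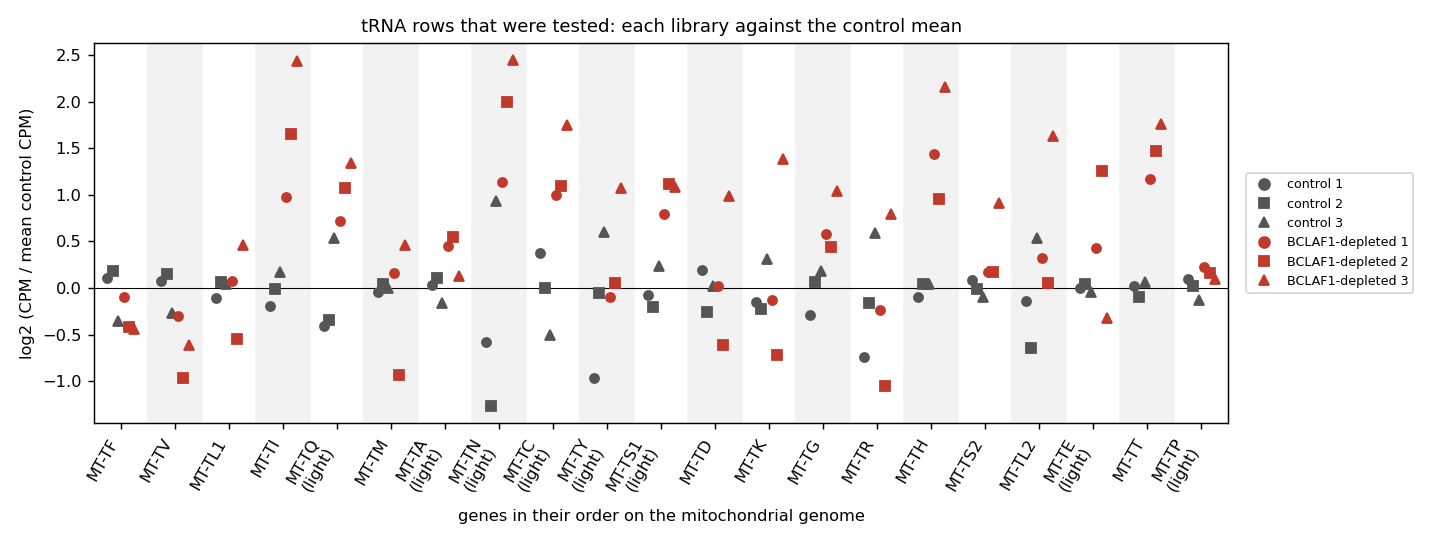
Log2 of each library's CPM over the control mean for the 21 tested tRNAs in their order along the genome, with light-strand-coded genes marked. MT-TI, MT-TQ, MT-TN, MT-TC, MT-TS1, MT-TH and MT-TT, which passed the test, have all 3 BCLAF1-depleted libraries (red) above the controls (grey). So do MT-TA, MT-TG and MT-TS2, which did not pass. MT-TV has them below, and MT-TE has BCLAF1-depleted replicate 3 below and replicate 2 above.

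Ratios within the mitochondrial transcripts do not depend on how libraries are scaled. The rRNA to mRNA ratio of counts was 0.691, 0.652 and 0.683 in control and 0.561, 0.502 and 0.341 in BCLAF1-depleted libraries. It was lower in all 3 BCLAF1-depleted libraries, with a difference of -0.56 in log2 of the ratio (exact permutation p = 0.1, the smallest possible; 0.12 adjusted over 6 ratios). Without BCLAF1-depleted replicate 3 the difference was -0.35. The tRNA to mRNA ratio was 0.00166, 0.00167 and 0.00148 in control and 0.00145, 0.00122 and 0.000624 in BCLAF1-depleted libraries. BCLAF1-depleted replicate 1 lay only just below the lowest control. The log2 difference was -0.63 (exact permutation p = 0.1; 0.12 adjusted), and -0.27 without BCLAF1-depleted replicate 3. In control libraries MT-TF, MT-TV and MT-TL1 made up most of the tRNA sum, so this ratio weighs those genes most. Singly, 19 of the 21 tested tRNAs had log2 fold changes above 0, and 13 of 21 did without BCLAF1-depleted replicate 3. MT-ND6 over the sum of the other 12 mRNAs was 0.0544, 0.0536 and 0.0555 in control and 0.0669, 0.105 and 0.0561 in BCLAF1-depleted libraries. That ratio was raised most in replicate 2, and in replicate 3 it barely exceeded the highest control. The log2 difference was 0.43 (exact permutation p = 0.1; 0.12 adjusted), and 0.17 without BCLAF1-depleted replicate 2. MT-RNR1 over MT-RNR2 was 0.217, 0.246 and 0.214 in control and 0.292, 0.418 and 0.209 in BCLAF1-depleted libraries. Here replicate 3 lay below the controls and the other 2 above them (log2 difference 0.38, exact permutation p = 0.4). The difference was 0.13 without BCLAF1-depleted replicate 2 and 0.63 without replicate 3.

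The 2 gene pairs whose shared bases are shown above each lie on a single mature RNA. MT-ATP8 over MT-ATP6 was 0.176, 0.175 and 0.174 in control and 0.157, 0.0941 and 0.138 in BCLAF1-depleted libraries. MT-ND4L over MT-ND4 was 0.110, 0.120 and 0.136 in control and 0.0904, 0.0559 and 0.0634 in BCLAF1-depleted libraries. Both ratios were lower in all 3 BCLAF1-depleted libraries, and in both the lowest value was that of replicate 2. The log2 differences were -0.47 and -0.83 (exact permutation p = 0.1 each; 0.12 adjusted). Without BCLAF1-depleted replicate 2 the first was -0.25. In each pair the shorter gene is the first one, with 207 against 681 bases and 297 against 1378 bases. No source used here says how reads in the shared bases were counted, and the part of this in the ratios was not tested.

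**Figure D5:**
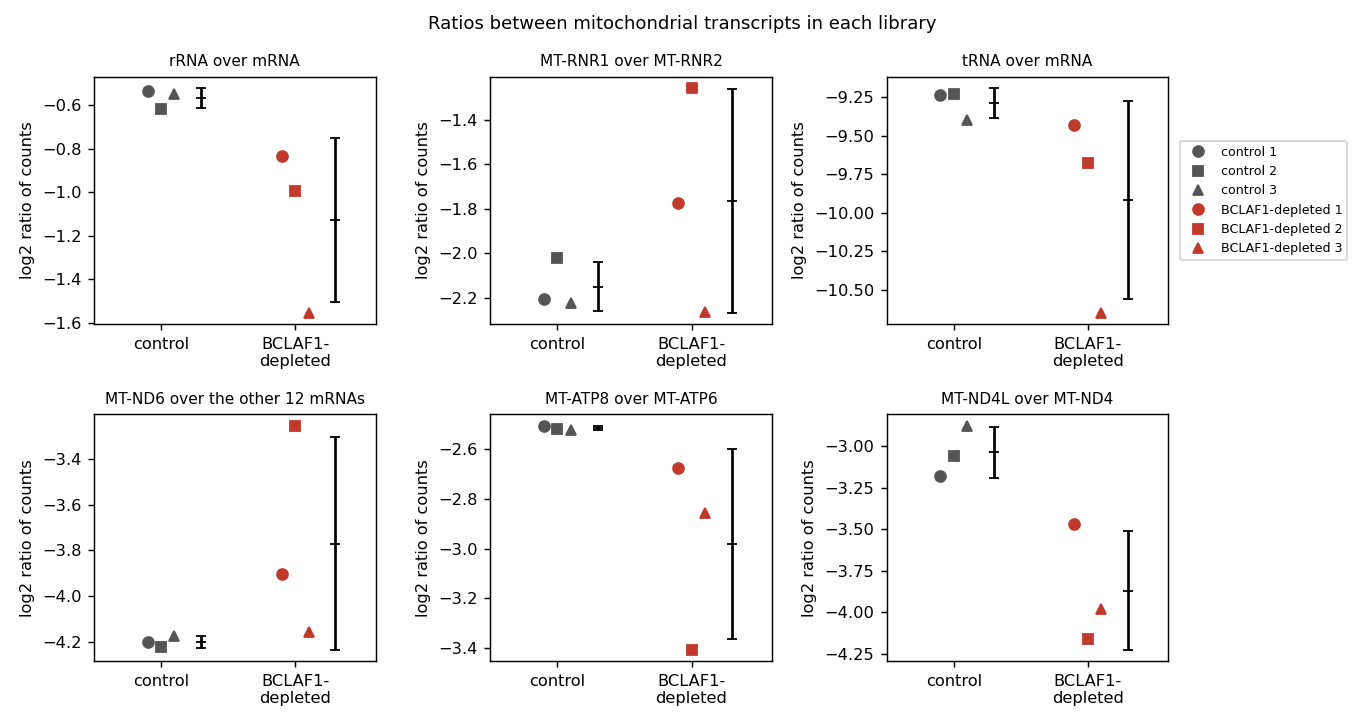
Log2 ratio of counts in each library for 6 pairs of mitochondrial transcripts or classes, with the mean and SD of each group of 3 libraries beside its points; each panel has its own axis. In 5 of the 6 panels the BCLAF1-depleted libraries (red) all lie on one side of the controls (grey), and for MT-RNR1 over MT-RNR2 replicate 3 lies on the other side.

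Nuclear copies could be counted for MT-RNR2 only. The symbols searched for matched 12 MTRNR2L genes, which resemble MT-RNR2, and their counts summed to 0.0275 to 0.0519% of those of MT-RNR2 per library. MTRNR2L8, MTRNR2L12, MTRNR2L1 and MTRNR2L9 had the most. Reads that match both places may have been split or dropped by the authors' counting.

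The nuclear genes that transcribe, process and maintain mitochondrial RNA moved in both directions. Of 109 genes in 7 lists, 24 rose, 13 fell and 72 did not pass, with a median log2 fold change of 0.11 beside 0.02 for all genes tested. The 24 are 22% and the 13 are 11.9% of the 109, beside 17.8% and 18% of all genes. With libraries scaled by their totals alone, the median of all genes was -0.21, and 4 of the 109 rose and 17 fell, where 31.1% of all genes passed, 8.07% as higher and 23% as lower. In the list for mtRNA transcription 2 of 10 genes rose and 1 fell. TFAM, which binds and packages mitochondrial DNA and starts its transcription, fell from 57.2, 57.8 and 58.1 CPM to 42.3, 29.6 and 30.8 CPM. Its log2 fold change was -0.75 ± 0.15 (SE; adjusted p = 0.00459), and the groups did not overlap. TFB1M, a methyltransferase of the small-subunit rRNA, and MRPL12, a ribosomal protein that also binds the mitochondrial RNA polymerase, rose by log2 fold changes of 0.44 and 0.63.

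In the list for processing and polyadenylation 1 of 7 genes rose and 0 fell in edgeR's test (0 were lower at an unadjusted p under 0.05, and the DESeq2 Wald test also called 0 lower). The riser was ELAC2, which cuts the 3′ end of tRNAs, with a log2 fold change of 0.41 ± 0.12 (SE; adjusted p = 0.0277). In the list for stability and decay 3 of 12 rose and 0 fell (1 was lower at an unadjusted p under 0.05, and the DESeq2 Wald test called 0 lower). SUPV3L1, the helicase of the mitochondrial degradosome, stood at 34.8, 33.9 and 35.2 CPM in control and at 41.3, 67.4 and 99.4 CPM in BCLAF1-depleted libraries. REXO2, an exonuclease that removes short RNA fragments, stood at 29.2, 27.4 and 30.7 CPM against 40.1, 47.1 and 88.9 CPM. SLIRP, which with LRPPRC stabilises mitochondrial mRNAs, stood at 88.3, 86.2 and 126.6 CPM against 124.5, 189.0 and 222.7 CPM. In these 3 genes replicate 3 was the highest library, whereas in 7 of the 12 genes of the list, LRPPRC and PNPT1 among them, it was the lowest of the 6 libraries. Their log2 fold changes were 1.00, 1.01 and 0.83, and for SLIRP the groups overlap and the call was lost without BCLAF1-depleted replicate 2 or 3.

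Of 20 genes that modify mitochondrial rRNA and tRNA 4 rose and 1 fell. MRM1, an rRNA methyltransferase, TRUB2 and PUS1, pseudouridine synthases, rose by log2 fold changes of 0.70, 0.54 and 0.53, and the tRNA methyltransferase TRMT61B fell by 0.71. Of 19 aminoacyl-tRNA synthetases 2 rose and 2 fell; CARS2 for cysteine rose by 0.63, and IARS2 for isoleucine fell by 0.44. Of 19 genes of mtDNA replication and nucleotide supply 7 rose and 4 fell. The helicase TWNK, listed as C10orf2, rose by 0.82, while the nuclease DNA2, the primase PRIMPOL and the succinyl-CoA ligase subunit SUCLA2 fell by 1.04, 0.81 and 0.74. Of 22 genes of mitochondrial mass and biogenesis 5 rose and 5 fell. PPARGC1A, a coactivator of mitochondrial biogenesis, fell from 54.9, 53.2 and 52.7 CPM to 25.7, 26.3 and 25.3 CPM, a log2 fold change of -1.06 ± 0.11 (SE; adjusted p = 0.000144). Its 3 BCLAF1-depleted values were almost equal, so replicate 3 did not stand apart in this gene. The related coactivator PPARGC1B and the chaperone HSPE1 rose by 0.61 and 0.58, and the transcription factor GABPA fell by 0.83. Of the 21 nuclear genes whose changes are given here, TFAM, REXO2, TRMT61B, TWNK, PRIMPOL, PPARGC1A and GABPA passed in each setting tried, and the other 14 missed the threshold in 1 to 10 settings.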

How the data were processed

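The authors deposited raw, whole-number read counts of 29122 genes and FPKM of 28878 genes, with 1 column for each library. The submitters' processing notes name bcl2fastq, TopHat2, edgeR and build GRCh38; no source used here gives versions, roles, counting tool or strand setting. The deposited FPKM equal the counts divided by annotated length and a library size, and were used for levels between genes and in alternatives for the gene tests, shares and ratios.

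The whole table was tested with the quasi-likelihood fit of edgeR 4.0.16 (R 4.3.3), with TMM scaling and group as the only term, on all 6 libraries. The filter filterByExpr (count of 10, total of 15) left 15907 genes, over which Benjamini-Hochberg adjustment was made, and an adjusted p under 0.05 was called. The common biological coefficient of variation was 15.3%. Library totals of 33409158 to 43928927 counts set the precision. Shares and ratios were compared by exact two-sided permutation over libraries.

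All genes with the MT- prefix are accounted for, with each library's values in the text or plots. Of each nuclear list, up to 4 genes past the threshold with the largest change and a mean of at least 5 CPM were named, except 1 that is not reported here. These genes and lists were chosen with earlier results of these data known. Alternatives were other scalings, filters, tests (DESeq2 1.42.0, limma 3.58.1), a replicate block, a length and GC trend (mgcv 1.9.3) removed, and each library left out. Anticodons were located by a search for a loop between paired stems.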

Additional observations from a re-analysis of the deposited data

How the results depend on the processing

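The 10 risers among mitochondrial genes became 18 without a low-count filter, where 10.3% of all genes were higher. They became 3 with at least 5 CPM in 3 libraries, which drops most tRNAs from the test, where 20.3% were higher. With the length and GC trend removed, without or with the replicate block, 6 rose and 2 fell in place of 1. There 18.1 or 18.4% of all genes were higher and 16 or 17.2% lower, beside 17.8 and 18% in the test given above. Leaving out 1 library gave 5 to 16 risers and 0 to 2 that fell. Over all genes 8.51 to 23% were then higher and 9.53 to 25.8% lower. Without control replicate 1 or 2, 5 mitochondrial genes rose, where 8.6 and 8.51% of all genes were higher. Without BCLAF1-depleted replicate 1, 16 rose, where 23% of all genes were higher. The nuclear lists gave 6 to 29 risers (5.5 to 26.6%) and 7 to 25 that fell (6.4 to 22.9%) with 1 library left out. The ranges over all genes were the 8.51 to 23% and 9.53 to 25.8% given above. Under library totals alone 4 of the listed genes rose (3.67%), beside 8.07% of all genes. With 1 library left out, the difference in share ran from 0.0255 to 4.44 points, rRNA over mRNA from -0.71 to -0.35, MT-RNR1 over MT-RNR2 from 0.13 to 0.63, tRNA over mRNA from -0.88 to -0.27, MT-ND6 over other mRNAs from 0.17 to 0.62, MT-ATP8 over MT-ATP6 from -0.62 to -0.25 and MT-ND4L over MT-ND4 from -1.03 to -0.69. BCLAF1 ran from -2.45 to -2.15. The cause of these changes was not tested. Depth limits the tRNAs, many of which have under 100 reads in a library.

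Same-numbered libraries had correlations of deviations of 0.036, 0.0466 and 0.119, so the numbers were not taken to pair the libraries, although every sample correlated best with its own number. With the replicate block 12 mitochondrial genes rose and 1 fell, and 22 nuclear genes rose and 14 fell. Over all genes 18.1% were then higher and 19.6% lower, and the difference in mitochondrial share was 2.81 points.

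All reversals of sign concerned genes that had not passed. With library totals alone the log2 fold change was -0.15 for MT-RNR2, -0.19 for MT-TL1, -0.24 for MT-TM, -0.25 for MT-TR and -0.059 for MT-TP. With no low-count filter it was -0.034 for MT-TM and -0.031 for MT-TR, and with the replicate block -0.049 for MT-TM and -0.0021 for MT-TR. With the length and GC trend removed it was -0.064 for MT-RNR2, -0.28 for MT-TL1, -0.40 for MT-TM, -0.27 for MT-TD, -0.52 for MT-TR and -0.23 for MT-TP. Adding the replicate block to that, it was -0.12 for MT-RNR2, -0.32 for MT-TL1, -0.46 for MT-TM, -0.35 for MT-TD, -0.12 for MT-TK, -0.13 for MT-ATP8, -0.52 for MT-TR and -0.22 for MT-TP. With limma-voom it was -0.0023 for MT-TL1, -0.099 for MT-TM and -0.057 for MT-TR. On log2(FPKM + 1) it was -0.24 for MT-RNR2, -0.29 for MT-TL1, -0.36 for MT-TM, -0.14 for MT-TD, -0.086 for MT-TK, -0.15 for MT-ATP8, -0.27 for MT-TR and -0.13 for MT-TP. On log2(FPKM + 0.1) it was -0.24 for MT-RNR2, -0.30 for MT-TL1, -0.39 for MT-TM, -0.15 for MT-TD, -0.095 for MT-TK, -0.15 for MT-ATP8, -0.34 for MT-TR and -0.13 for MT-TP. With 1 library left out it ran from -0.23 to 0.30 for MT-RNR2, from -0.20 to 0.28 for MT-TL1, from -0.28 to 0.32 for MT-TM, from -0.036 to 0.85 for MT-TY, from -0.26 to 0.58 for MT-TD, from -0.40 to 0.81 for MT-TK, from -0.31 to 0.64 for MT-ATP8, from -0.59 to 0.43 for MT-TR, from -0.71 to 0.14 for MT-ND4L, from -0.0087 to 0.92 for MT-ND4 and from -0.14 to 0.77 for MT-ND5. For each of these genes the lowest value was that without BCLAF1-depleted replicate 3.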

Other observations

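Each mRNA's part of the mitochondrial mRNA counts showed how the make-up of the 13 mRNAs differed between libraries. MT-CO1 held 28.3, 29.2 and 28.3% in control and 27.1, 28.6 and 24.7% in BCLAF1-depleted libraries. MT-ND1 held 9.63, 9.54 and 9.50% in control and 10.9, 10.9 and 15.1% in BCLAF1-depleted libraries, above all controls in each. MT-CO3 held 4.92, 4.90 and 5.03% in control and 5.31, 3.75 and 2.87% in BCLAF1-depleted libraries, on both sides of the controls. MT-ND6 held 5.08 to 5.26% in control and 6.27, 9.48 and 5.31% in BCLAF1-depleted libraries. Replicate 2 therefore had the largest part of MT-ND6 and replicate 3 the largest part of MT-ND1. These are parts of a fixed total, so a larger part of one gene lowers the parts of the others, and they were not tested.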
